A study of Mus musculus with 21 samples.

Results

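Suppressive myeloid effector genes encode enzymes, cytokines, a receptor and an oxidase through which myeloid cells of a tumour hold back T cells. The 9 genes described here are Arg1, Nos2, Ptgs2, Ptges, Il10, Tgfb1, Ido1, Il4ra and Cybb. They were taken by symbol, and not by their measured values, and all 9 were found among the 19241 genes of the tumour tables. RNA was sequenced from mammary tumours of mice kept sedentary or physically active, and the comparison addressed here is how the 9 genes differ with activity and with time. Every tumour came from an MMTV-PyMT mouse, in which the mouse mammary tumour virus promoter drives the polyoma virus middle T oncogene in mammary epithelium. The 4 groups were sedentary week 12, active week 12, sedentary week 18 and active week 18, each with 3 tumours labelled as biological replicates. The labels do not say whether the week is an age or a time under the activity regimen, and they do not describe the regimen. No animal without the transgene entered these comparisons.

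Arginase and inducible nitric oxide synthase compete for arginine, one making ornithine and urea and the other nitric oxide, and loss of arginine or gain of nitric oxide slows T cell division. Cyclooxygenase 2 and the microsomal prostaglandin E synthase act in sequence to make prostaglandin E2, indoleamine dioxygenase breaks down tryptophan, and the phagocyte oxidase makes superoxide. Interleukin 10 and transforming growth factor beta are secreted suppressors of immune cells, and the interleukin 4 receptor passes on the signals that raise Arg1 in macrophages. Several of these genes are also made by epithelial, stromal or endothelial cells. In tumour pieces, fewer cells of a type and less RNA per cell cannot be told apart.

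Promoter windows were matched in RefSeq (GRCm38.p6) for 5 of the 9 genes, Ptgs2, Ptges, Tgfb1, Il4ra and Cybb. The windows of Ptgs2 and Cybb are printed because, of these 5 genes, Ptgs2 had the widest and Cybb the narrowest spread within groups. Each run reads 5′ to 3′ from 250 bases before the transcription start to 30 bases after it. Capitals in Ptgs2 mark matches to the C/EBP palindrome TTGCGCAA, the cyclic AMP response core ACGTCA and the E-box CACGTG, read on either strand. Capitals in Cybb mark the CCAAT box, the PU.1 core GAGGAA and the interferon response pattern. The other motifs searched were the hypoxia response core ACGTG (which the E-box contains), the GC box GGGCGG and the kappa-B pattern, held by 19.6%, 35.7% and 50.8% of windows. A match describes letters and not a bound site.
Ptgs2 promoter, chr1:150099781-150100060, plus strand: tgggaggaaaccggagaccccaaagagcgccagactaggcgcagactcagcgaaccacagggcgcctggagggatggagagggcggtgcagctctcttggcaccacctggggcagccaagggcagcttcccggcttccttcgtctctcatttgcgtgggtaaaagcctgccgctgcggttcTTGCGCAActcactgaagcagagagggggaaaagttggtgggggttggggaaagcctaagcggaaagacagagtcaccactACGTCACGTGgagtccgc
Cybb promoter, chrX:9469295-9469574, minus strand: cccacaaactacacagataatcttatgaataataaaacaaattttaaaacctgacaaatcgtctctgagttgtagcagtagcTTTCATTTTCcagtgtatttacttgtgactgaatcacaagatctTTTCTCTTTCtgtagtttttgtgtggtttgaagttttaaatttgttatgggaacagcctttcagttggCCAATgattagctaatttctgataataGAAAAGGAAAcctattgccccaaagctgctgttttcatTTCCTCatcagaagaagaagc
In Ptgs2 the palindrome TTGCGCAA, a pattern that C/EBP factors can read, starts 69 bases before the start site and is held by 0.183% of 32851 promoter windows of 300 bases. The cyclic AMP response core ACGTCA and the E-box CACGTG overlap there just after the start, and 7.51% and 7.15% of windows hold them. In Cybb the interferon response pattern, a repeated GAAA with a short gap, occurs 3 times and is held by 3.44% of windows. The Cybb window also holds 1 CCAAT and 1 GAGGAA, the core read by PU.1, which occur in 37.4% and 28.3% of windows. Left in lower case are 1 match each to the PU.1 core, the GC box and the kappa-B pattern in Ptgs2 and 1 to the kappa-B pattern in Cybb.

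Libraries held 20838963 to 28973775 reads. Luminal mammary epithelium and macrophage markers were present in every tumour, with summed normalized counts of 57431 to 141308 for 8 of 8 luminal genes and 12071 to 25628 for 10 of 10 macrophage genes. Neutrophil markers were lower and uneven: S100a9 reached at most 26.0, Retnlg 11.2, S100a8 197, Wfdc21 226 and Mmp9 428 normalized counts, and Csf3r lay between 56.4 and 133. Most of the summed neutrophil list, of which 11 of 14 genes were listed, came from Ltf, which mammary epithelium also makes. Week 12 active replicate 3 stood apart, with a summed T cell list of 13970 against 219 to 475 in the other 11 tumours. Its summed B cell list was 23535 against 27.8 to 183, and its lymph node stroma and follicle list 19791 against 44.3 to 365. Its adipocyte list was 355434 against 984 to 80427. Sedentary week 12 tumours carried skeletal muscle transcripts, with sums of 58369 to 125603 against 318 to 1408 in active week 12 tumours. Sedentary week 18 replicate 1 had the lowest macrophage sum of all tumours.

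Per kilobase of exon, Arg1 was the most abundant of the 9, with a mean of 1903 ± 1733 normalized counts per kb (SD over 12 tumours), higher than 97.3% of 18854 genes with a known length and a mean of at least 1. Tgfb1, Il4ra, Cybb, Ptges and Ido1 followed at 264 ± 92.3, 256 ± 88.4, 213 ± 59.9, 175 ± 149 and 144 ± 185 per kb, and neighbours in this order differed by less than their SD. Ptgs2 averaged 40.9 ± 46.2 and Nos2 13.3 ± 11.9 per kb. Il10 was nearly absent, at 2.72 ± 2.56 per kb.

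None of the 9 genes passed the adjusted p threshold of 0.05 with limma in any of the 5 comparisons. The share of all tested genes that passed was 0.517% for active against sedentary tumours at week 12, 0% at week 18, 0% for sedentary and 0% for active tumours between weeks, and 0.0104% for the difference between the activity effects. At an unadjusted limma p under 0.05, 0 of the 9 were found at week 12 against 4.09% of all genes. Only Ptgs2 was found at week 18 against 5.97%. With the replicate block at week 18, 0 of the 9 were found, against 1404 of 18939 genes tested. In sedentary tumours between weeks 0 of the 9 were found against 4.98%. Only Ido1 was found in active tumours between weeks against 12.1%, and only Ptgs2 for the difference between effects against 6.33%. At this cut edgeR found 1 of the 9 at week 12, against 844 of 19162 genes. At week 18 it found 2, against 1116 of 18939. DESeq2 found 1 and 3, against 1309 and 1377 genes. For sedentary tumours, active tumours and the difference between effects, edgeR found 0, 3 and 2, against 813, 2892 and 1604 genes. DESeq2 found 2, 3 and 2 there, against 925, 3850 and 2015 genes. DESeq2 on recovered reads called 1 of the 9, Ido1 in active tumours between weeks, where it called 889 of all 19182 genes tested. With edgeR, 0 of the 9 were called in each comparison, and over all genes 76 of 19162 at week 12 and 0 in the other comparisons. Groups did not overlap for 1 of the 9 at week 12 (Tgfb1, higher), 1 at week 18 (Ptgs2, higher), 0 in sedentary and 1 in active tumours between weeks (Ido1, lower). The shares of all genes with no overlap in the higher and lower direction were 4.36% and 4.78% at week 12 (9.13% in either) and 6.03% and 7.57% at week 18 (13.6% in either). They were 4.39% and 6.02% in sedentary tumours between weeks (10.4% in either) and 12.1% and 12.7% in active tumours (24.9% in either). These comparisons share tumours, so their values for a gene are not independent. The p-values of these comparisons set each difference against the spread between these tumours.

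**Figure D1:**
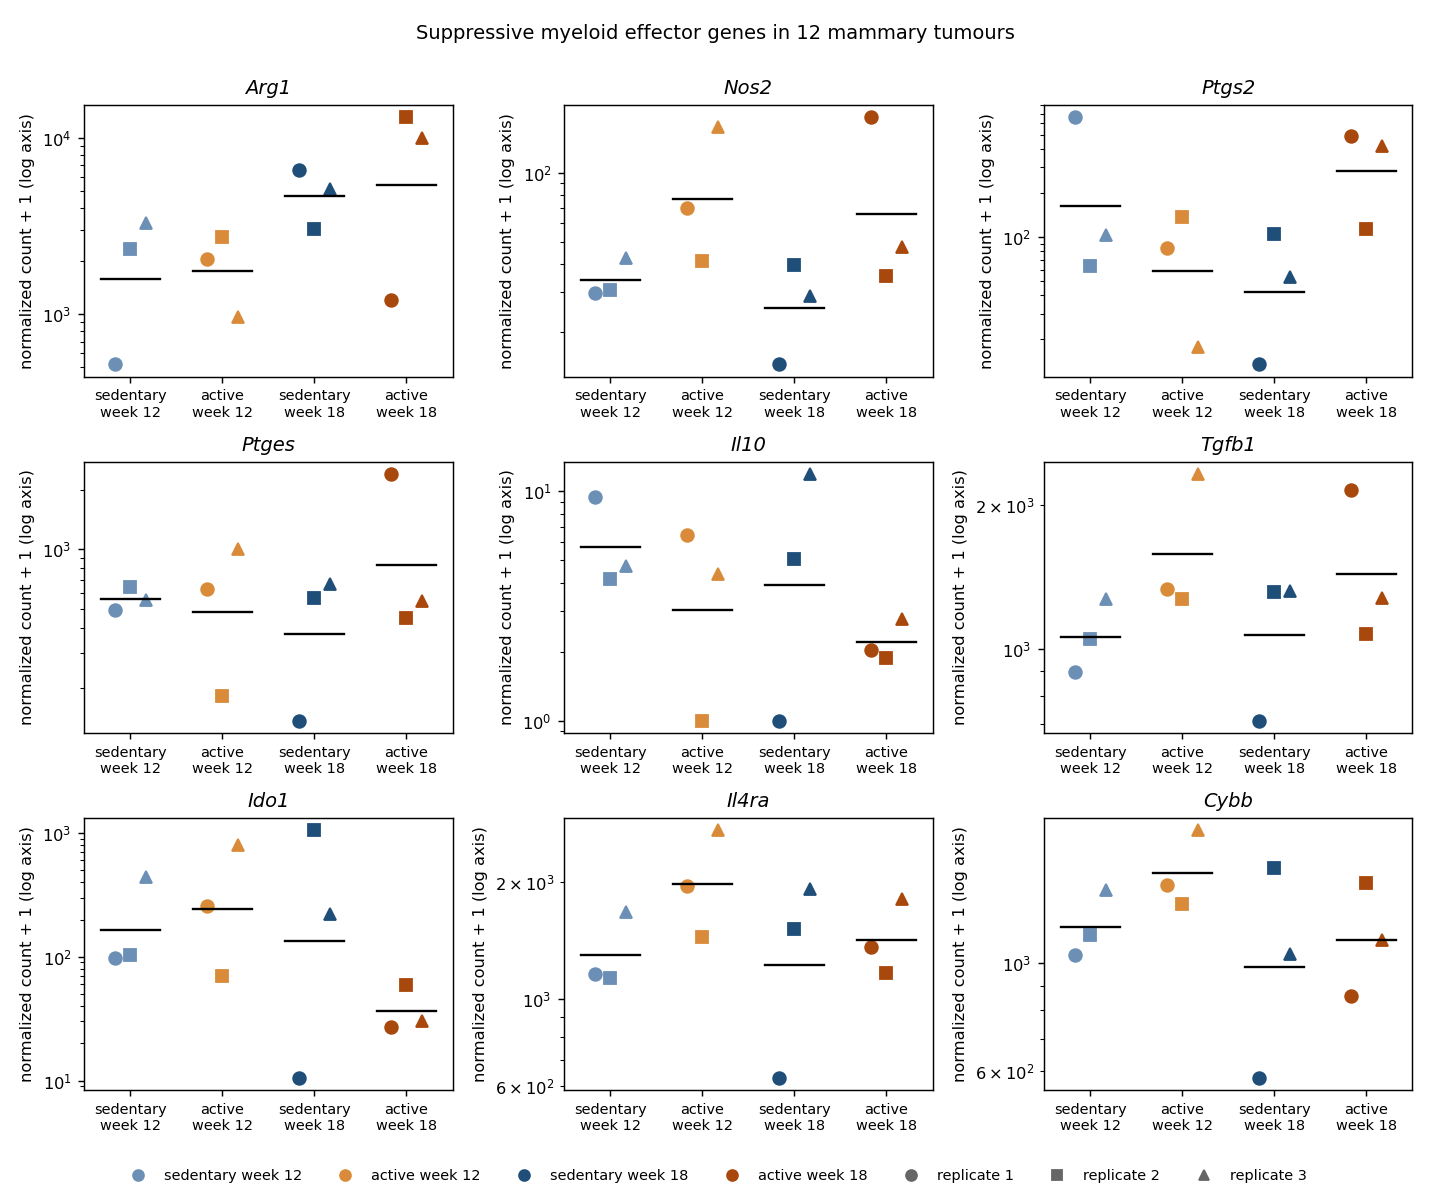
Normalized count plus 1 (log axis) of each of the 9 genes in each of 12 tumours, by group on the horizontal axis; symbols mark the replicate and bars the mean of log2 values. Ptgs2 was higher in all active than in all sedentary tumours of week 18, and sedentary week 18 replicate 1 was the lowest or tied lowest tumour for 8 genes and high for Arg1.

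Arg1 (chr10:24915221-24927484, minus strand, protein-coding; GENCODE positions on GRCm38) encodes arginase 1. Its normalized counts were 518, 2332 and 3287 in sedentary week 12 tumours and 2054, 2730 and 961 in active ones. At week 18 they were 6606, 3050 and 5106 in sedentary tumours and 1207, 13066 and 9974 in active ones. Active week 18 tumours thus held both the highest value and 1 value below every sedentary tumour of that week, and groups overlapped in every comparison. For Arg1 the log2 difference was 0.15 (SE 0.81) at week 12 and 0.20 (SE 0.97) at week 18, with limma adjusted p-values of 0.988 and 0.969. Between weeks the log2 difference was 1.56 (95% interval -0.33 to 3.46) in sedentary and 1.62 (-0.92 to 4.17) in active tumours, with limma adjusted p-values of 0.985 and 0.478. Arg1 was the main arginase in each tumour. Per kb it made up 76.3% to 99.4% of the summed Arg1 and Arg2, with the lowest share in week 12 active replicate 3.

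Nos2 (chr11:78920787-78960254, plus strand), the inducible nitric oxide synthase, was at 28.8, 29.5 and 41.2 normalized counts in sedentary week 12 tumours and 69.2, 40.2 and 158 in active ones. Week 18 values were 13.4, 38.5 and 27.8 in sedentary and 175, 34.1 and 46.4 in active tumours. One active tumour per week, replicate 3 at week 12 and replicate 1 at week 18, stood far above the rest, and the groups overlapped. For Nos2 the log2 difference was 1.20 (SE 0.52) at week 12 and 1.39 (SE 0.72) at week 18, with limma adjusted p-values of 0.970 and 0.824. Without those tumours the differences were 0.67 and 0.68. In the authors' deposited table the adjusted p-values of Nos2 were 0.607 at week 12 and 0.644 at week 18. Between weeks Nos2 differed by -0.41 in sedentary and -0.22 in active tumours. Nos2 contributed 7.15% to 52.5% of the per-kb sum of Nos1, Nos2 and Nos3, the highest in active week 18 replicate 1. Nos3, the endothelial enzyme, was the highest of these per kb in 11 of 12 tumours.

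The other genes of arginine and nitric oxide metabolism included no limma call among 14 tested in any comparison. Their median log2 difference was 0.03 at week 12 and 0.04 at week 18, against 0.01 for all tested genes in both weeks. The smallest p in the list belonged to Nos1 at week 12, with a log2 difference of -2.44 and values of 100.7 ± 4.49 in sedentary and 30.2 ± 34.4 in active tumours (SD, n = 3). Nos1 is also made in skeletal muscle, whose transcripts were high in the same sedentary tumours, and the part of this was not tested. At week 18 it belonged to Arg2, the mitochondrial arginase, at 126.7 ± 50.2 in sedentary and 50.8 ± 7.97 in active tumours, a log2 difference of -1.22 with a limma adjusted p of 0.824. Between weeks the smallest p was that of Nos1 in sedentary tumours (-2.65) and of Odc1, which turns ornithine into putrescine, in active tumours (0.84). For the difference between effects it was that of Gch1 (1.27), which makes the cofactor of nitric oxide synthases.

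Ptgs2 (chr1:150100031-150108227, plus strand), whose promoter is printed above, encodes cyclooxygenase 2. Its normalized counts were 660, 62.2 and 102 in sedentary week 12 tumours and 82.9, 136 and 16.7 in active ones. At week 18 they were 12.4, 104 and 52.5 in sedentary and 488, 113 and 416 in active tumours. Every active tumour of week 18 lay above every sedentary one, although active replicate 2 and sedentary replicate 2 were close. Groups without overlap in the higher direction, at any distance, were found for 6.03% of all genes in that comparison. The log2 difference at week 18 was 2.75 (SE 0.94, 95% interval 0.39 to 5.11, 6.74-fold on the scale of value plus 1), with an unadjusted limma p of 0.0295 and an adjusted p of 0.824. The adjusted p in the authors' deposited table was 0.215, and the lowest over the alternatives tried here was 0.122. With the replicate number as a block, which took same-numbered tumours of week 18 as pairs, the interval was -0.51 to 6.01 and held 0. The unadjusted limma p was then 0.0772 and the adjusted p 0.689. Without sedentary week 18 replicate 1 the log2 difference was 1.93.

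At week 12 the direction for Ptgs2 was opposite, with a log2 difference of -1.47 (95% interval -4.41 to 1.48) and a limma adjusted p of 0.970. That value rested on sedentary replicate 1, and it was -0.46 without this tumour. The difference between the activity effects of week 18 and week 12 was 4.22 (SE 1.61, 95% interval 0.61 to 7.83), with a limma unadjusted p of 0.0266 and an adjusted p of 0.743. It was 3.21 without sedentary week 12 replicate 1. Between weeks Ptgs2 differed by -1.94 in sedentary and 2.28 in active tumours, with limma adjusted p-values of 0.985 and 0.417. Ptgs1 encodes the constitutive cyclooxygenase and lay between 49.4 and 84.7 per kb. Ptgs2 made up 4.26% to 74.5% of the per-kb sum of Ptgs1 and Ptgs2, with group means of 38.3% ± 31.5 and 20.1% ± 15.4 in sedentary and active week 12 tumours and 12.8% ± 8.47 and 49.2% ± 22.5 at week 18 (SD, n = 3).

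Ptges (chr2:30889471-30929863, minus strand) encodes the inducible prostaglandin E synthase that acts after cyclooxygenase. It was at 494, 642 and 551 normalized counts in sedentary and 626, 180 and 997 in active week 12 tumours, and at 135, 570 and 665 in sedentary and 2401, 447 and 545 in active week 18 tumours. The highest value, in active week 18 replicate 1, was 17.8 times the lowest, in sedentary week 18 replicate 1. The remaining week 18 tumours lay between 447 and 665. Active and sedentary tumours differed by a log2 difference of -0.21 at week 12 and 1.17 (95% interval -1.10 to 3.44) at week 18, with limma adjusted p-values of 0.982 and 0.826. Without active week 18 replicate 1 the latter was 0.41. Between weeks it was -0.59 in sedentary and 0.79 in active tumours.

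Of the other 14 genes of the prostaglandin E2 pathway, none was called by limma in any comparison. The list median was 0.05 at week 12 and 0.16 at week 18. The smallest p belonged to Abcc4, a prostaglandin exporter, at week 12 (0.89), and to Ptges3, a constitutive prostaglandin E synthase and cochaperone, at week 18 (0.35). Ptges3 was at 2770 ± 281 normalized counts in sedentary and 3551 ± 571 in active week 18 tumours (SD, n = 3), and it also had the smallest p of the list in active tumours between weeks (0.63) and for the difference between effects (0.59). In sedentary tumours between weeks it was Ptgds, a prostaglandin D synthase (1.56).

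**Figure D2:**
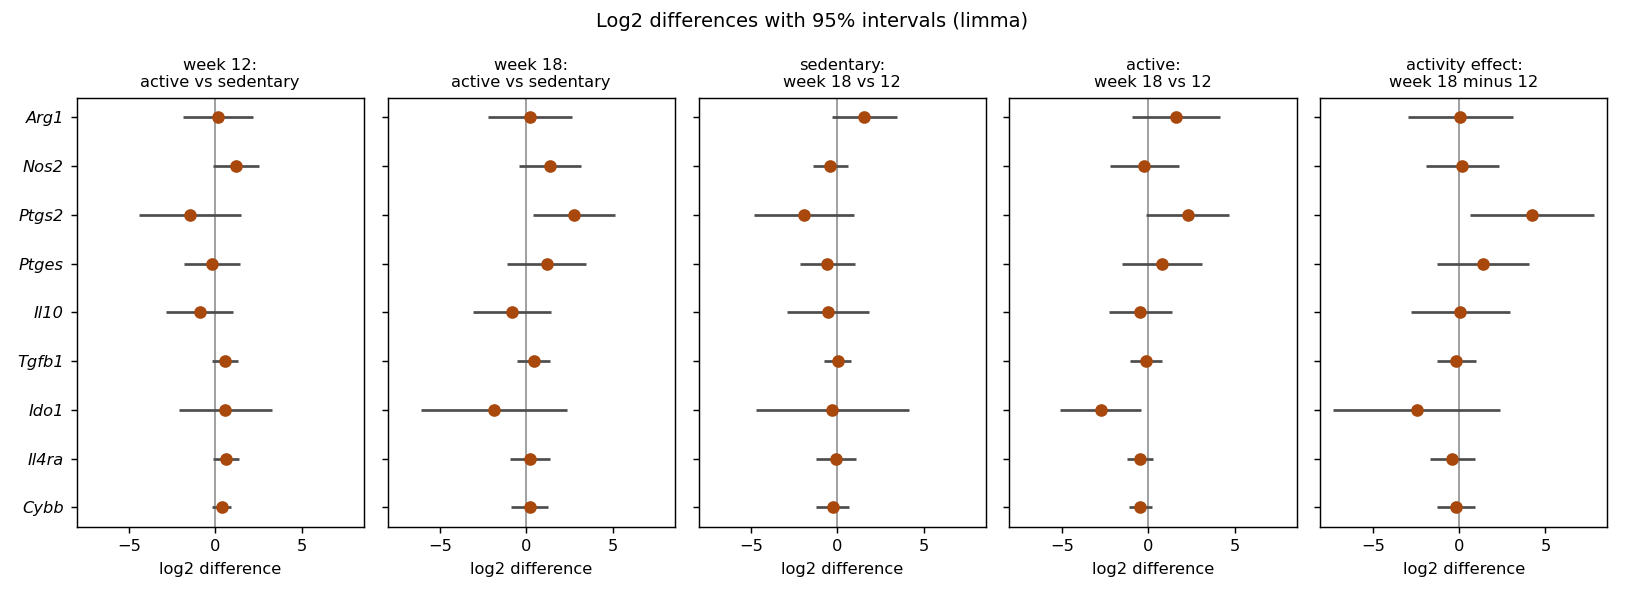
Log2 differences (horizontal axis, points) with 95% intervals (lines) from limma for the 9 genes in 5 comparisons. The interval left out 0 for Ptgs2 at week 18, for Ido1 in active tumours between weeks and for Ptgs2 in the difference between weeks, all before adjustment over all genes and without the replicate block, with which the week 18 interval of Ptgs2 held 0 (-0.51 to 6.01).

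Il10 (chr1:131019845-131024974, plus strand) encodes interleukin 10. At most 11 reads were found in any tumour. Normalized counts were 8.40, 3.16 and 3.74 in sedentary and 5.47, 0 and 3.35 in active week 12 tumours, and 0, 4.05 and 10.9 in sedentary and 1.04, 0.874 and 1.78 in active week 18 tumours. Active week 18 tumours were all low, but 1 sedentary tumour was at 0. Summed reads at week 18 were 15 in sedentary and 4 in active tumours, a ratio per total of 4.20 with an exact 95% interval of 1.34 to 17.4. At week 12 they were 14 and 9, a ratio of 1.63 (0.656 to 4.26). These intervals cover counting error only and pool 3 tumours per group. With the spread between tumours included, the log2 difference was -0.91 at week 12 and -0.83 at week 18, with limma adjusted p-values of 0.970 and 0.853. Neither passed once the spread between tumours was counted. The size at these low counts depended on the scale: for week 18 it was -2.01 with DESeq2 on reads and -2.81 in the authors' deposited table, where the adjusted p was 1.

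The receptor chains were better measured than their ligand, with Il10ra at 137 ± 84.6 and Il10rb at 297 ± 52.1 normalized counts per kb (SD over 12 tumours). No gene of the interleukin 10 list was called by limma, among 8 tested at week 12 and 9 at week 18. The median was 0.19 in both weeks. Il10rb had the smallest p at week 12, with 964 ± 103 normalized counts in sedentary and 1212 ± 30.3 in active tumours (log2 difference 0.33, limma adjusted p 0.970). Prdm1, which encodes the repressor Blimp-1, had it at week 18 (-1.17), in active tumours between weeks (-0.94) and for the difference between effects (-1.48). In sedentary tumours between weeks it was Maf (-0.43), a transcription factor that acts on Il10.

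Tgfb1 (chr7:25687002-25705077, plus strand) encodes transforming growth factor beta 1. Its normalized counts were 895, 1049 and 1269.7 in sedentary and 1333, 1270.3 and 2322 in active week 12 tumours. The groups did not overlap, by less than 1 normalized count, as for 4.36% of all genes in the higher direction. The log2 difference was 0.57 (95% interval -0.17 to 1.32) with a limma adjusted p of 0.970. It was 0.30 without active replicate 3, the tumour with the high T cell, B cell, lymph node and adipocyte lists. At week 18 the values were 708, 1316 and 1322 in sedentary and 2146, 1075 and 1277 in active tumours. These overlapped, and the log2 difference was 0.42 (-0.54 to 1.38). Between weeks the values were 0.02 in sedentary and -0.14 in active tumours. Tgfb1 was not the main isoform in any tumour, at 5.92% to 25.5% of the per-kb sum of Tgfb1, Tgfb2 and Tgfb3. Tgfb3 was higher per kb, at 2750 ± 765 over the 12 tumours.

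The TGF-beta pathway list of 23 other genes held no limma call in any comparison, with a median of 0.04 in both weeks. Ltbp4, a latent TGF-beta binding protein, had the smallest p at week 18, at 1551 ± 358 normalized counts in sedentary and 672 ± 116 in active tumours (log2 difference -1.19, limma unadjusted p 0.00296, adjusted p 0.647). It also had the smallest p in active tumours between weeks (-1.81). Ltbp1 had it at week 12 (-0.46). Thbs1, thrombospondin 1, which can activate latent TGF-beta, had it in sedentary tumours between weeks (-0.55) and for the difference between effects (0.97, limma adjusted p 0.581).

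Ido1 (chr8:24584136-24597009, minus strand) encodes the tryptophan-degrading indoleamine 2,3-dioxygenase 1. It was the most variable of the 9, at 96.0, 102 and 443 normalized counts in sedentary and 256, 69.0 and 806 in active week 12 tumours. Week 18 values were 9.57, 1048 and 221 in sedentary and 26.0, 57.7 and 29.4 in active tumours. The sedentary week 18 group held both the lowest and the highest of the 12 values, 109-fold apart, and all active tumours of that week were low. Ido1 had a log2 difference of 0.57 at week 12 (95% interval -2.12 to 3.26) and -1.89 at week 18 (-6.11 to 2.33), with limma adjusted p-values of 0.971 and 0.831. Without sedentary week 18 replicate 1 the latter was -3.73. The authors' deposited table gave -3.51 for week 18 with an adjusted p of 0.328.

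In active tumours, Ido1 was lower at week 18 than at week 12 with no overlap, as for 12.7% of all genes in the lower direction. The log2 difference was -2.75 (SE 0.93, 95% interval -5.08 to -0.41), with a limma unadjusted p of 0.0288 and an adjusted p of 0.412. DESeq2 gave -3.31 with an adjusted p of 0.00690, while edgeR gave an adjusted p of 0.328. Over all 19182 genes in this comparison, DESeq2 called 889 and edgeR 0. Without week 12 active replicate 3, where T cell, dendritic cell, B cell, lymph node and adipocyte markers were high, the difference was -1.88. In the same comparison 10 of 10 dendritic cell and 10 of 10 T cell markers had values below 0, with medians of -1.95 and -2.61. So did 10 of 10 adipocyte, 8 of 8 B cell and 7 of 7 lymph node markers, with medians of -4.97, -3.91 and -3.54. All 8 fibroblast and all 6 endothelium markers were below 0 too. Monocyte (5 of 6) and neutrophil (7 of 11) markers lay mostly below 0, with medians of -1.44 and -0.08. Skeletal muscle (12 of 12), hypoxia response (11 of 12), luminal (7 of 8), squamous and basal (6 of 7) and macrophage (7 of 10) lists lay mostly above 0. The macrophage median was 0.04. The part of these lists in the Ido1 difference was not tested. In sedentary tumours the difference between weeks was -0.28 (-4.71 to 4.14), and the difference between the activity effects was -2.46 (limma adjusted p 0.789).

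The other tryptophan dioxygenase in the tables was lower than Ido1: Tdo2 averaged 1.55 ± 1.15 normalized counts per kb (SD over 12 tumours). None of 13 tested genes of the list was called by limma in any comparison, and the median was 0.30 at week 12 and -0.29 at week 18. The smallest p was that of Il4i1, an amino acid oxidase, at week 12 (2.29), where active replicate 3 alone carried 1965 normalized counts. It was that of Qprt, which makes NAD precursors from quinolinate, at week 18 (-1.38) and for the difference between effects (-2.03). Between weeks it was that of Kyat3 in sedentary tumours (0.37) and of Slc7a5, a carrier of tryptophan and other large amino acids, in active tumours (1.44).

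Il4ra (chr7:125552120-125579474, plus strand) encodes the receptor chain shared by interleukin 4 and interleukin 13. It was at 1159, 1132 and 1673 normalized counts in sedentary and 1956, 1448 and 2713 in active week 12 tumours, and at 629, 1517 and 1915 in sedentary and 1360, 1167 and 1803 in active week 18 tumours. Only 1 sedentary week 12 tumour reached into the active range. The log2 difference was 0.60 (95% interval -0.15 to 1.36) at week 12 and 0.22 (-0.94 to 1.37) at week 18, with limma adjusted p-values of 0.970 and 0.922. The former was 0.37 without active replicate 3. Between weeks it was -0.09 in sedentary and -0.47 in active tumours. Of 15 tested genes of interleukin 4 and interleukin 13 signalling, which include macrophage genes induced by these cytokines, limma called none in any comparison. At week 12, 13 of 15 lay above 0, with a median of 0.33, and at week 18, 6 of 15, with a median of -0.19. Chil3, a chitinase-like protein, had the smallest p at week 12 (1.68), and Retnla, a secreted product of macrophages exposed to interleukin 4, at week 18 (-1.62) and in active tumours between weeks (-2.92). Il33 had it in sedentary tumours between weeks (1.24) and Socs1 for the difference between effects (-0.94).

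Cybb (chrX:9435252-9487771, minus strand), whose promoter is printed above, encodes the catalytic subunit of the phagocyte NADPH oxidase. It was the steadiest of the 9, at 1038, 1143 and 1417 normalized counts in sedentary and 1447, 1327 and 1878 in active week 12 tumours. At week 18 it was at 581, 1568 and 1043 in sedentary and 854, 1460 and 1119 in active tumours. The week 12 groups overlapped by 1 tumour and the week 18 groups throughout. The log2 difference was 0.37 (95% interval -0.17 to 0.90) at week 12 and 0.18 (-0.87 to 1.24) at week 18, with limma adjusted p-values of 0.970 and 0.927. Between weeks it was -0.27 in sedentary and -0.46 in active tumours. Of 11 tested partner and related oxidase genes, none was called by limma in any comparison, and the median was 0.59 at week 12 and 0.22 at week 18. Hvcn1, a proton channel of phagocytes and B cells, had the smallest p at week 12 (1.66), and week 12 active replicate 3 held 4311 normalized counts against 172 to 327 in the others. Duox2 had it at week 18 (-1.52) and for the difference between effects (-2.17), Nox4 in sedentary tumours between weeks (-1.45) and Noxo1 in active tumours between weeks (0.85).

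**Figure D3:**
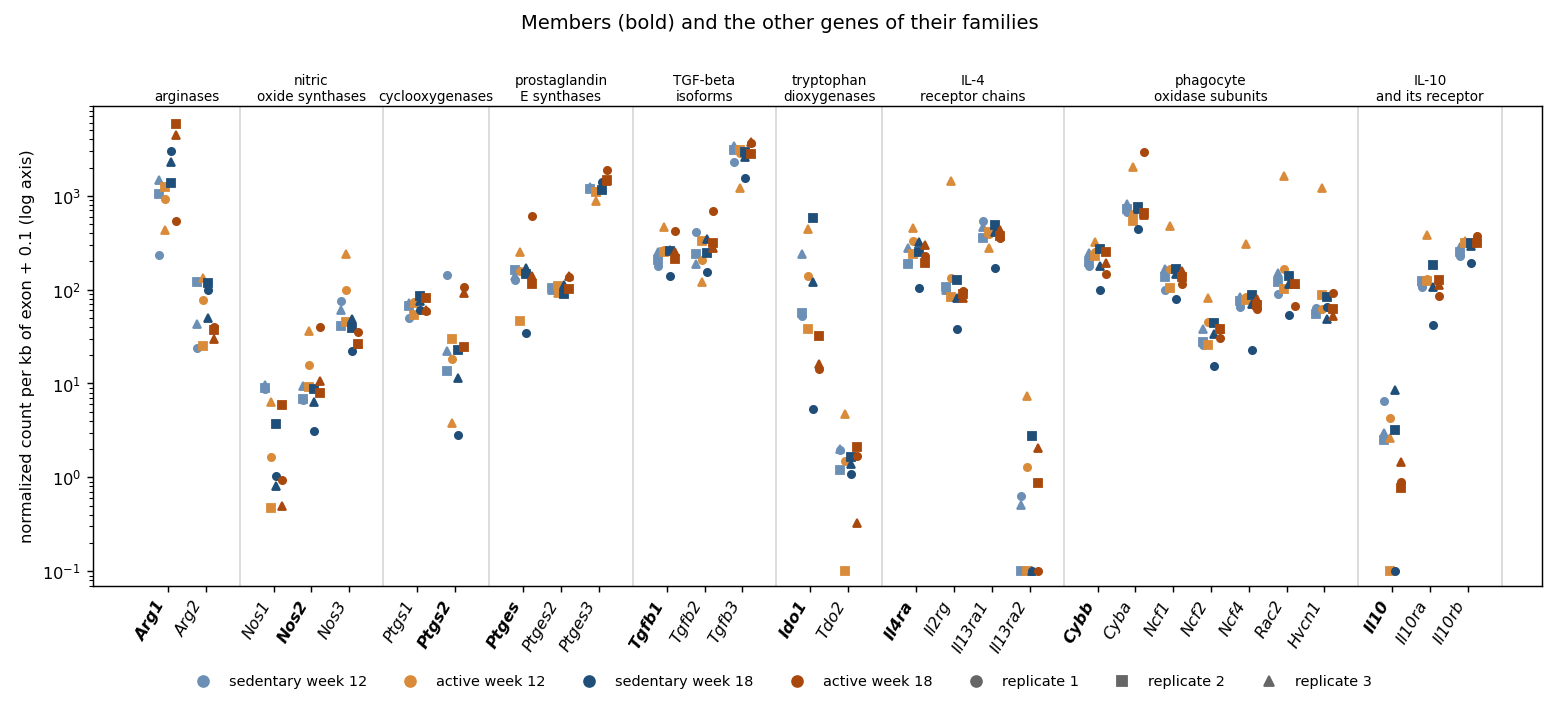
Normalized count per kb of exon plus 0.1 (log axis) of each of the 9 genes (bold) and of family members or partner subunits, 1 symbol per tumour, coloured by group. Arg1 lay above Arg2 and Tgfb3 above Tgfb1 in every tumour, and Il10 lay below both of its receptor chains.

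As a group, the 9 genes had a median log2 difference of 0.37 for active against sedentary tumours at week 12, with 6 above 0, against 0.01 for all genes. At week 18 the median was 0.22 with 7 above 0, against 0.01. Between weeks it was -0.28 in sedentary tumours, with 2 above 0, against -0.02 for all genes, and -0.22 in active tumours, with 3 above 0. The 8 genes other than Il10, which was too low to be ranked, were each more variable within groups than the median gene. The within-group SD of log2 values was 2.03 for Ido1, 1.52 for Ptgs2, 1.27 for Arg1 and 1.12 for Ptges, and between 93.2% (for Ptges) and 99.2% (for Ido1) of 13638 genes had a smaller one. Nos2 was at 0.88, and Il4ra, Tgfb1 and Cybb at 0.53, 0.46 and 0.44, against a median of 0.30 over all these genes.

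The tumours that set these spreads were few. Sedentary week 18 replicate 1 was the lowest, or tied at 0 for Il10, for every member except Arg1. It also had the lowest macrophage list, with a sum of 12071 against 24587 and 25628 in the other tumours of its group. The part of this in the members' levels was not tested. Week 12 active replicate 3 was the highest for Tgfb1, Il4ra and Cybb, and active week 18 replicate 1 for Nos2 and Ptges. Arg1 ran apart from the rest: its correlation across the 12 tumours was below 0 with each of the other 8 members, from -0.14 with Cybb to -0.47 with Nos2, although without week 12 active replicate 3 that with Cybb was 0.04. The closest pairs were Nos2 and Tgfb1 (r = 0.94), Ido1 and Cybb (0.81) and Nos2 and Ptges (0.78). These are descriptions over tumours that share libraries and group effects.

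**Figure D4:**
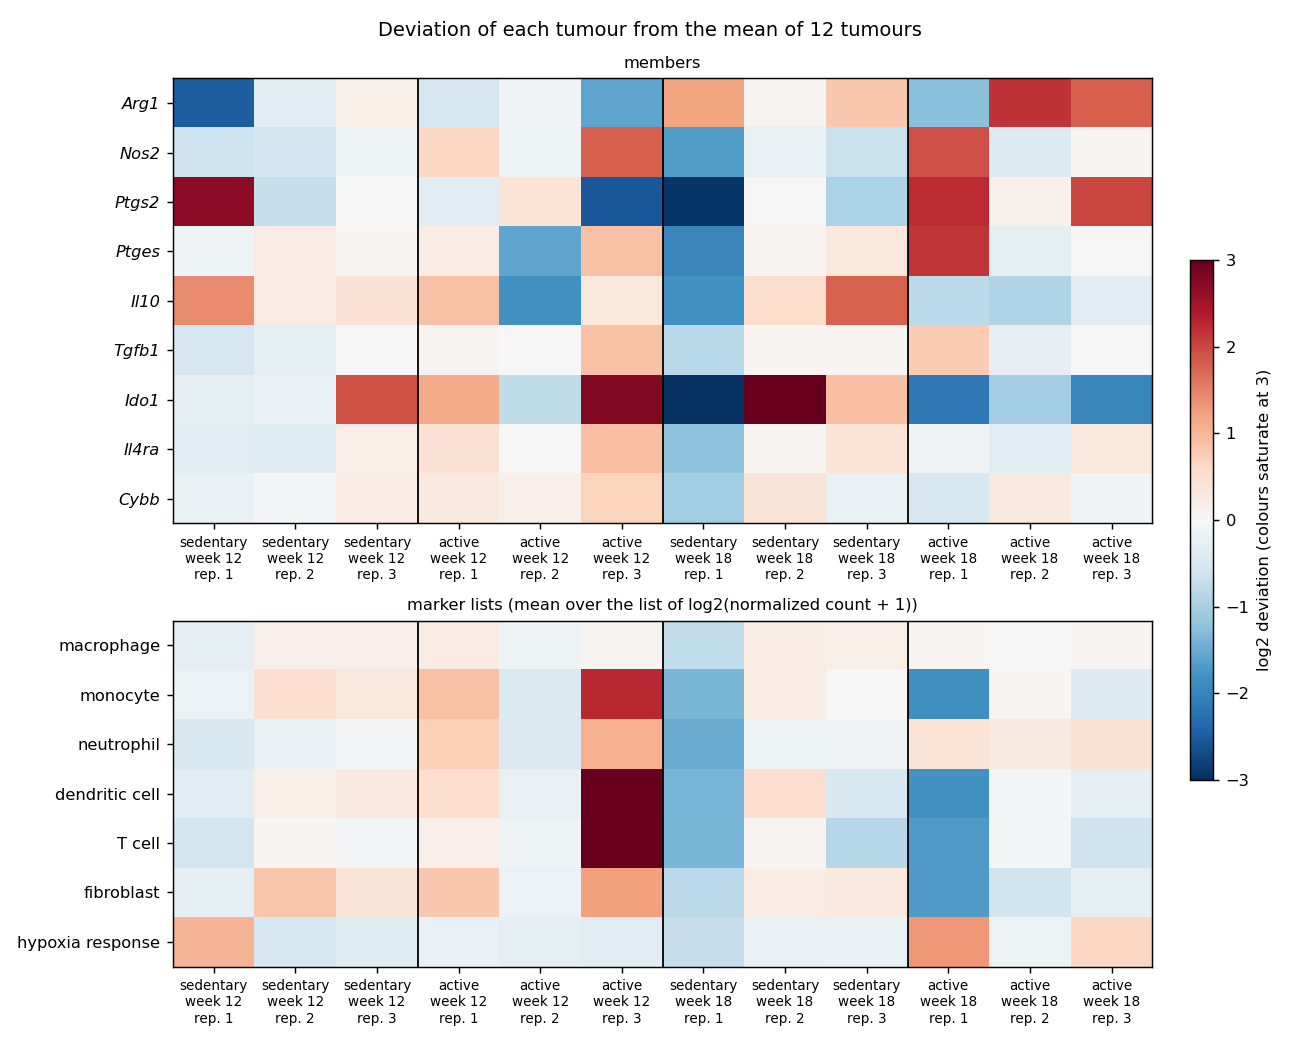
Log2 deviation of each tumour (columns, by group and replicate) from the mean of 12 tumours, for the 9 genes (upper rows) and for marker lists (lower rows), on 1 colour scale that saturates at 3. Sedentary week 18 replicate 1 is blue for every member except Arg1 and for all the lists drawn, and week 12 active replicate 3 is red for T cell and dendritic cell lists, Nos2 and Ido1.

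Members were set against macrophage, neutrophil and hypoxia response lists, each scored as the mean log2 value of its genes, in 27 relations over 12 tumours. The hypoxia list was added after the data had been seen. For 9 of the 27 the permutation p of Pearson's r, adjusted by the Benjamini-Hochberg method over the 27, was under 0.05. For 5 of these 9 that of Spearman's rho was as well. Both counts include Ptgs2 with the hypoxia list, for which no pooled r is given below. The permutations shuffled all 12 tumours without regard to the 4 groups, so differences between groups enter these p-values. Nos2 and the neutrophil list had r = 0.83 (permutation p 0.0009, adjusted 0.0121) and rho = 0.80 (permutation p 0.0021, adjusted 0.0339). Leaving out the 2 tumours farthest from the median of the list gave r = 0.62, and within weeks r was 0.94 at week 12 and 0.74 at week 18. The neutrophil score weighs each gene alike, low ones included, and it ranked tumours otherwise than the summed list. Week 12 active replicate 3 had the highest score (5.96) with a sum of 7373. Sedentary week 12 replicate 1 had the highest sum (59209) with a score of 4.41. Relations with this score therefore do not measure neutrophil content. Ido1 and the macrophage list had r = 0.69 (permutation p 0.00778, adjusted 0.0350) and rho = 0.76 (permutation p 0.00627, adjusted 0.0339), with 0.62 left without 2 tumours and 0.58 and 0.73 within weeks.

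Tgfb1 and Il4ra had r = 0.81 and 0.84 with the neutrophil list (adjusted permutation p 0.0134 for each) and rho = 0.78 and 0.76 (adjusted permutation p 0.0339 for each). Their r was 0.50 and 0.45 without 2 tumours, and within weeks it was 0.85 and 0.78 for Tgfb1 and 0.92 and 0.79 for Il4ra. For active against sedentary tumours at week 18, the neutrophil list had 8 of 11 genes above 0, a median log2 difference of 1.18, 6 of 11 at an unadjusted limma p under 0.05 and 0 called. At week 12, 10 of 11 lay above 0, with a median of 0.45. The part of these genes in the members' differences was not tested.

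The relation of Cybb with the macrophage list fell from r = 0.72 (adjusted permutation p 0.0466) to 0.13 without sedentary week 18 replicate 1 and sedentary week 12 replicate 1. That of Cybb with the neutrophil list fell from 0.69 to 0.02 without sedentary week 18 replicate 1 and active week 12 replicate 3, and that of Il4ra with the macrophage list from 0.77 to 0.29. Ptges had 0.72 with the neutrophil list and 0.48 without them. Arg1 had no r beyond 0.39 in size with any of the lists over 12 tumours, but within weeks it had -0.80 and -0.53 with the hypoxia list and 0.57 and -0.23 with the macrophage list, over 6 tumours each.

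Ptgs2 followed the hypoxia list in another manner. The list, 12 genes that include Car9, Vegfa, Slc2a1 and Ldha, split the tumours into 3 with scores of 11.05 to 11.73 and 9 with scores of 9.72 to 10.27. The 3 high tumours were sedentary week 12 replicate 1 and active week 18 replicates 1 and 3, and they had Ptgs2 at 416 to 660 normalized counts, against 12.4 to 136 in the other 9. Because the tumours fell into separate sets, no pooled r is given. Within the 9, set apart by the widest gap in the scores, r was 0.67 (exact permutation p 0.0421, not adjusted). There rho was 0.50 (exact permutation p 0.178, not adjusted). Sedentary week 18 replicate 1 had both the lowest score and the lowest Ptgs2 of the 9, and r without it was not computed. For active against sedentary tumours at week 18, 12 of 12 hypoxia genes lay above 0, with a median log2 difference of 0.98 and none called by limma. Other lists also lay wholly on 1 side. All 12 skeletal muscle genes were above 0 (median 1.16). All 10 adipocyte and all 8 fibroblast genes were below 0 (medians -1.80 and -0.81). The part of these lists in the Ptgs2 difference was not tested.

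**Figure D5:**
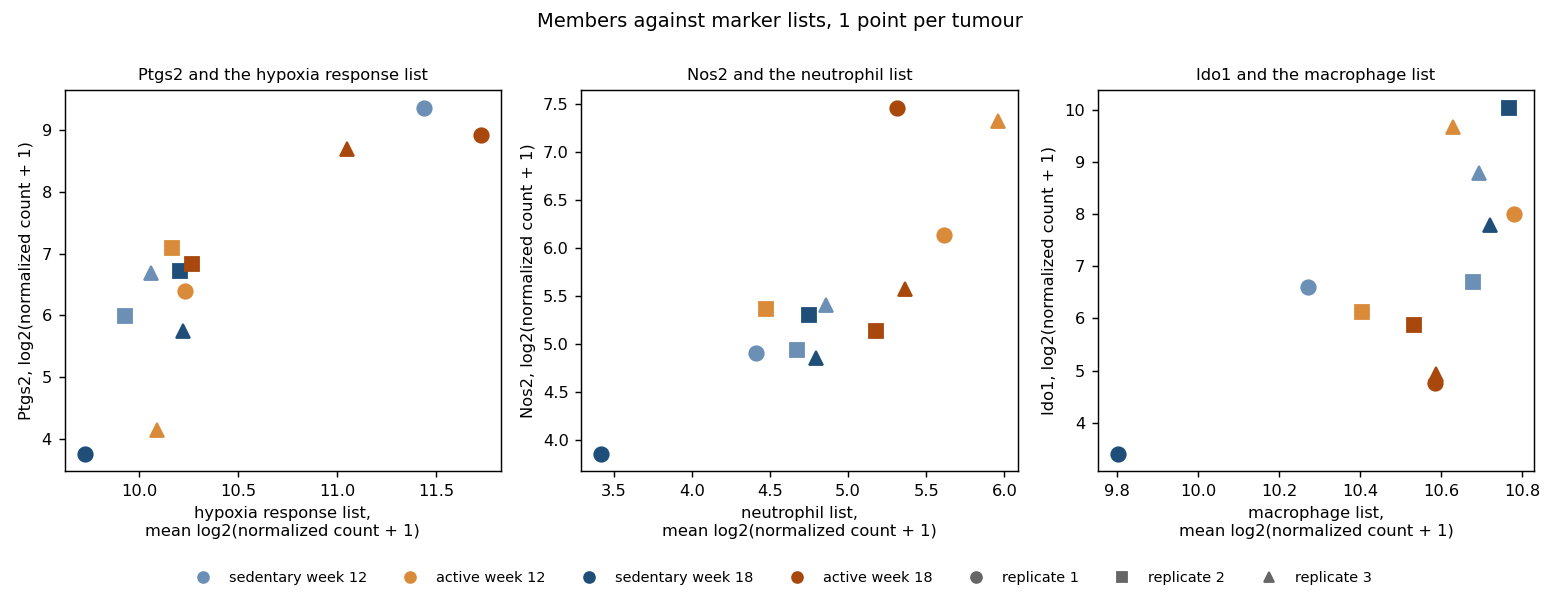
Log2(normalized count + 1) of Ptgs2, Nos2 and Ido1 (vertical axes) against the mean log2 value of the hypoxia response, neutrophil and macrophage lists (horizontal axes), 1 symbol per tumour. The 3 tumours with the highest hypoxia scores have the highest Ptgs2, and sedentary week 18 replicate 1 is lowest on both axes in each plot.

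Among 13630 other genes with a mean of at least 50 normalized counts, those most like each member across the 12 tumours are named by Pearson's r of log2 values, as a description. For Ptgs2 they were Gch1 (0.95), Ldha (0.95) and Ero1l (0.94), of which Ldha and Ero1l belong to the hypoxia list. For Nos2 they were Nfkbie (0.95), Slc15a3 (0.94) and Prnp (0.94). Cybb was most like Slamf8 (0.98), Apol6 (0.96) and H2-Aa (0.96), and Tgfb1 like Anxa5 (0.97), Srgn (0.94) and Glipr2 (0.93). Arg1 was most like Jtb (0.93), Abi1 (0.92) and Mospd1 (0.91), and Ptges like Aldh1a1 (0.95), Acap2 (0.94) and Cd68 (0.93). For Ido1 they were Fxyd2 (0.94), Dmbt1 (0.94) and Fgf2 (0.94), and for Il4ra Fxyd5 (0.94), Pla2g15 (0.93) and Rasd1 (0.93). Il10, with its few reads, was most like Trim3 (0.89), Metrnl (0.88) and Slfn4 (0.85).

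Without week 12 active replicate 3, over 11 tumours, some of these names changed. Slamf8 remained first for Cybb (0.98, then Slamf9 at 0.97 and Apol6 at 0.95) and Anxa5 for Tgfb1 (0.97, then Pcdhgc3 at 0.96 and Tmem176b at 0.94). Atp6v1c1 (0.97) and Ncoa7 (0.95) moved ahead of Gch1 (0.95) for Ptgs2, and Rgs16 (0.95), Mmp12 (0.94) and Ecscr (0.94) led for Nos2. Ido1 had Dmbt1 (0.94), Fxyd2 (0.94) and Adig (0.93). The first places went to Ccdc28b (0.96), Jtb (0.94) and Ndufb9 (0.92) for Arg1, to Sestd1 (0.95), Aldh1a1 (0.95) and Rgs14 (0.95) for Ptges, to Lrrc25 (0.95), Gm4755 (0.94) and Mpp1 (0.94) for Il4ra, and to Zxdb (0.92), Trim3 (0.92) and Metrnl (0.88) for Il10.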

How the data were processed

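Tumour RNA was extracted with TRIzol and made into libraries with a stranded mRNA kit, per the labels' protocols. The build was mm10, per the submitters' processing notes, and the descriptions name DEBrowser. The aligner, counter and annotation are not given in the sources used here. The authors deposited, per the file headers, a normalized count (a signal per gene) for each tumour, a log2 fold change, a p-value and a test statistic, used here as a score and not reported. Each deposited value was a whole multiple of 1 step per library, so reads were recovered for 100% of values (tolerance 0.001). Reads scaled by the median of ratios over all 12 tumours gave values equal to the deposited ones (ratio 1), so both weeks are on 1 scale. No per-sample column of these tables went unmapped.

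The fit was limma 3.58.1 in R 4.3.3 on log2(value + 1), which understates changes of low genes, over genes averaging 1 or more in either group, with Benjamini-Hochberg adjustment over all genes tested. Each pair of groups was fitted alone, and the difference between weeks over all 12 tumours. The members and lists were chosen with earlier results of these data known. Named beside the members were, per list and comparison, genes past the threshold or, with none, the gene of smallest p, and the 3 genes most correlated with each member. Genes per kb used summed exons of GENCODE M21 (18870 of 19241 symbols matched). Correlations used 100000 permutations (scipy 1.17.1).

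Whether replicate numbers pair tumours was checked by the correlation, over genes, of same-numbered tumours' deviations from their group means. Numbers were taken as pairs where all correlations were over 0.1. At week 18 the correlations were 0.164, 0.159 and 0.139, so the numbers were taken as pairs in that comparison only. These correlations are weak, and the labels call the numbers biological replicates and name no pairs. Alternatives were other scalings, filters and pseudocounts, edgeR 4.0.16, DESeq2 1.42.0 and limma-voom on recovered reads, the replicate number as a block, 1 fit of all tumours and leaving out each tumour. The procedure was tested on simulated data. The hematopoietic stem cell libraries of the series were not used here.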

Additional observations from a re-analysis of the deposited data

How the results depend on the processing

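Counts of called genes moved with the test, and the cause was not tested. The week 12 count of 99 genes was 208 with DESeq2, 56 with limma-voom, 9 in 1 fit of all tumours and 9 to 71 without 1 tumour. At week 18, 0 became 5 with a pseudocount of 0.1, 52 with DESeq2 and 0 to 5 without 1 tumour. In sedentary tumours between weeks, 0 became 10 with a pseudocount of 0.1, 172 with DESeq2, 1 in 1 fit of all tumours and 0 to 10 without 1 tumour. In active tumours between weeks, 0 became 1 with a mean of at least 10, 5 with a pseudocount of 0.1, 889 with DESeq2, 3 in 1 fit of all tumours and 0 to 1 without 1 tumour. For the difference between effects, 2 became 4 with a pseudocount of 5, 0 with edgeR, 172 with DESeq2, 0 with limma-voom and 0 to 23 without 1 tumour. Members called went from 0 to 1, Ido1, in active tumours between weeks with DESeq2 only. With the replicate block the counts were 0 at week 12 and 0 for the difference between effects. At week 18, where the numbers were taken as pairs, the block changed no adjusted call. It took Ptgs2 there from an unadjusted limma p of 0.0295 to 0.0772.

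Of 805 member values under alternatives, 56 changed sign, 43 of them without 1 tumour, and 25 of 45 values never did. Log2 values that reversed with edgeR and DESeq2 were Arg1 (-0.089 and -0.11) and Ptges (0.088 and 0.077) at week 12, Ido1 (1.01 and 1.00) and Il4ra (0.051 and 0.042) in sedentary tumours between weeks, and Il10 (-1.14 and -1.23) for the difference between effects. Il10 also reversed with a pseudocount of 0.1 in active tumours between weeks (0.042) and with a pseudocount of 5 for the difference between effects (-0.15), and Arg1 there with scaling by library total (-0.011). Without 1 tumour, ranges that crossed 0 at week 12 were -0.66 to 0.67 for Arg1, -0.73 to 0.50 for Ptges and -0.29 to 1.47 for Ido1. At week 18 they were -0.43 to 1.28 for Arg1, -0.26 to 0.54 for Il4ra and -0.19 to 0.52 for Cybb. In sedentary tumours between weeks they were -1.01 to 0.14 for Ptges, -1.34 to 0.44 for Il10, -0.14 to 0.32 for Tgfb1, -1.76 to 1.55 for Ido1, -0.41 to 0.39 for Il4ra and -0.61 to 0.11 for Cybb. In active tumours between weeks they were -0.92 to 0.30 for Nos2, -1.27 to 0.077 for Il10 and -0.43 to 0.14 for Tgfb1. For the difference between effects they were -0.58 to 1.14 for Arg1, -0.51 to 0.71 for Nos2, -0.91 to 0.88 for Il10, -0.45 to 0.12 for Tgfb1 and -0.56 to 0.15 for Cybb. The Il10 values rest on few reads, at most 11 in a tumour.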
